A study of Mus musculus with 24 samples.

Results

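RNA-seq counts from MS03 cells cultured for 24 hours with 0.1 μM BSJ-04-146 (3 libraries) were compared with those from cells cultured for 24 hours with the solvent DMSO (3 libraries). These 6 libraries, of 24 in the series, were taken by their treatment labels, in which the compound is spelled BSJ-04-0146. MS03 is a murine Schwann cell (SC) line that is *Nf2*-/-. It was made by infecting immortalized SCs of an *Nf2* flox/flox mouse with Cre, so that every group, DMSO included, carries the deletion. It is a single line in culture, and counts summed over a whole gene cannot show the deletion. The labels call the libraries of a group biological replicates, with no word on whether they were separate cultures, and P values then measure only the spread between these libraries. GSK215, another FAK-targeting PROTAC, was given at the same 0.1 μM for the same 24 hours (3 libraries) and served as the matched comparator. Defactinib, VS-4718, GSK2256098, IN10018 (ifebemtinib) and PROTAC FAK degrader 1 were given at 1 μM, and their levels are set beside those of BSJ-04-146 without a comparison because the dose differs.

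Focal adhesion kinase (FAK, encoded by *Ptk2*) is a cytoplasmic tyrosine kinase that is recruited to clustered integrins and relays signals from the extracellular matrix to the actin cytoskeleton and to the RAS-ERK and PI3K-AKT pathways. A PROTAC is a small molecule that holds its target protein next to an E3 ubiquitin ligase, so that the target is ubiquitinated and degraded; it acts on the protein, and RNA-seq does not measure that step. SCs ensheathe peripheral axons, are specified by the transcription factor SOX10, and need the neuregulin receptor ERBB3, while loss of *Nf2*, which encodes the FERM-domain protein merlin, leads to schwannoma.

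BSJ-04-146 changed about as many genes upward as downward. Of 49315 genes in the table, 16070 had enough counts to be tested, and 8771 of them (54.6%) differed from DMSO at an adjusted P value under 0.05, with 4451 higher (27.7%) and 4320 lower (26.9%). Most changes were small: the median absolute log2 fold change was 0.28, and a change of more than 2-fold was called for 926 genes higher (5.76%) and 252 lower (1.57%). The split between directions depends on scaling, since with library totals in place of TMM factors 6018 genes were higher and 2966 lower, and the all-gene median moved from 0.02 to 0.13 on the log2 scale. Total counts were 16112245 to 17794597 in the BSJ-04-146 libraries and 22952048 to 27449516 in the DMSO libraries, so low genes were measured with less precision after treatment. The first principal component of the 6 libraries carried 87.9% of the variance and separated the groups, and BSJ-04-146 replicate 3 stood apart from replicates 1 and 2 on the second, which carried 3.94%. Mitochondrially encoded genes took 3.34% to 4.10% of counts after BSJ-04-146 and 3.03% to 3.06% after DMSO. In bulk RNA, fewer cells of a kind and less RNA per cell cannot be told apart.

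Markers placed the culture only partly in the SC lineage. *Sox10*, *Erbb3* and *Ngfr* were detected in all 6 libraries, but *S100b* (1 to 5 counts with DMSO, 6 to 14 with BSJ-04-146) and *Gap43* (3 to 6 and 4 to 6 counts) were close to 0. The summed level of the 10 SC markers was 110.8 to 115.7 CPM with DMSO and 266 to 293 CPM with BSJ-04-146, and 8 of the 9 tested were higher. Of 11 macrophage markers, the defining genes *Ptprc*, *Adgre1*, *Tyrobp* and *C1qa* had 0 counts in all 6 libraries. The 3 tested, *Cd68*, *Csf1r* and *Fcer1g*, were higher, and the summed level was 4.07 to 4.66 CPM with DMSO and 9.25 to 10.8 CPM with BSJ-04-146. Most of that sum came from *Cd68*, with means of 3.35 and 7.57 CPM. *Cd14* (1 to 5 counts with DMSO, 1 with BSJ-04-146) and *Lyz2* (0 to 4 and 0 to 1 counts) were too low to test. Fibroblast markers were mixed: *Lum* and *Dpt* had 0 counts, *Col1a1* and *Col1a2* fell, *Col3a1* and *Pdgfra* rose, and the sum was 2075 to 2130.0 CPM with DMSO and 1843 to 1931 CPM with BSJ-04-146. The endothelial sum was 0.659 to 0.902 CPM with DMSO and 1.06 to 1.36 CPM with BSJ-04-146, the epithelial sum 6.14 to 6.58 and 8.96 to 10.3 CPM (*Krt8* and *Krt18* higher, *Krt19* lower, at 41 to 45 counts with DMSO and 2 to 5 with BSJ-04-146), and the neuronal sum 61.8 to 62.8 and 70.0 to 71.1 CPM, most of it from *Map2*.

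Transcripts of the genes the study is about moved modestly. Levels are given as CPM, counts scaled by TMM to a common library size, and gene coordinates are those of GRCm38. *Met* (chr6:17463800-17573980, plus strand), which encodes the hepatocyte growth factor receptor, measured 239, 232 and 241 CPM in the 3 DMSO libraries and 159, 149 and 153 CPM in the 3 BSJ-04-146 libraries. The groups did not overlap, and the log2 fold change was -0.62 ± 0.03 (SE), adjusted p = 8.20e-19 by edgeR. An exact two-sided permutation test of log2(CPM + 4) gave p = 0.10, the smallest value that 20 splits of 3 against 3 allow. *Ptk2* (chr15:73205102-73423280, minus strand), the gene of the targeted kinase, measured 92.9, 95.4 and 97.7 CPM with DMSO and 81.0, 80.1 and 78.1 CPM with BSJ-04-146, a log2 fold change of -0.26 ± 0.04 (SE), adjusted p = 9.62e-08. The FAK paralog *Ptk2b* was too low to test, with at most 3 counts in a DMSO library and at most 2 in a BSJ-04-146 library. *Nf2* (chr11:4765845-4849536, minus strand) measured 184, 179 and 178 CPM with DMSO and 160.2, 160.2 and 172 CPM with BSJ-04-146. RNA of the gene was thus abundant in this *Nf2*-/- line. The log2 fold change was -0.14 ± 0.03 (SE), adjusted p = 5.48e-04, and it was not called when library totals replaced TMM (-0.03, adjusted p = 0.487). At 1 μM, mean *Met* levels were 228 ± 3.90 CPM (SD, n = 3) with defactinib, 199 ± 5.00 with VS-4718, 221 ± 6.59 with GSK2256098, 203 ± 3.80 with IN10018 and 92.1 ± 1.52 with PROTAC FAK degrader 1, beside 154 ± 5.25 with BSJ-04-146 and 237 ± 4.36 with DMSO.

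Genes called with a mean of at least 5 CPM and groups that did not overlap were ranked. The 12 largest increases among them had log2 fold changes of 2.65 to 4.34. *Angptl4* (chr17:33773750-33781830, minus strand), a secreted inhibitor of lipoprotein lipase, went from 1.13, 1.73 and 0.906 CPM with DMSO to 26.9, 26.0 and 24.6 CPM with BSJ-04-146 (log2 fold change 4.34 ± 0.13 (SE), adjusted p = 9.78e-27). *Gpnmb* (chr6:49036546-49070929, plus strand), a transmembrane glycoprotein of lysosomes and melanosomes, went from 0.859, 0.978 and 0.906 to 14.9, 13.1 and 11.9 CPM (log2 fold change 3.85 ± 0.16 (SE), adjusted p = 2.74e-22). *Aldh3a1* (chr11:61207537-61218421, plus strand), an aldehyde dehydrogenase, went from 20.2, 19.4 and 19.9 to 214, 216 and 206 CPM (log2 fold change 3.42 ± 0.05 (SE), adjusted p = 4.76e-37). Since genes whose groups overlapped were left out, the gap between groups in each gene comes from the choice. Of 16070 genes tested, 9528 had groups that did not overlap. *Tns1* (chr1:73910231-74124449, minus strand) encodes tensin 1, which links integrins to actin at focal adhesions, and its level went from 43.0, 44.8 and 41.8 to 314, 309 and 351 CPM (log2 fold change 2.91 ± 0.04 (SE), adjusted p = 1.96e-36). *Mxd4* (chr5:34173883-34187720, minus strand), a MAX partner that opposes MYC, went from 6.33, 5.04 and 5.23 to 41.8, 44.9 and 45.4 CPM (log2 fold change 3.00 ± 0.08 (SE), adjusted p = 5.79e-28). The remaining genes of the 12 largest increases had log2 fold changes of 3.59 for the semaphorin receptor *Plxnb3*, 3.58 for xanthine dehydrogenase *Xdh*, 3.14 for the matrix phosphoprotein *Dmp1*, 2.82 for apolipoprotein D (*Apod*), 2.71 for lipocalin 2 (*Lcn2*), 2.69 for *Gas7* and 2.65 for the Groucho-family corepressor *Tle2*. Exons of *Mxd4*, *Gas7* and *Tle2* overlap another gene on the other strand, and the strand setting of the counting is not given in the sources used here.

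Under the same limits, the 12 largest decreases began with *Chac1* and *Slc7a11*. *Chac1* (chr2:119351229-119354381, plus strand), which encodes a glutathione-degrading enzyme, fell from 23.3, 25.1 and 21.9 CPM with DMSO to 2.59, 3.58 and 3.19 CPM with BSJ-04-146 (log2 fold change -2.90 ± 0.10 (SE), adjusted p = 2.01e-24). *Slc7a11* (chr3:49892526-50443614, minus strand), the cystine-glutamate antiporter subunit, fell from 31.3, 29.8 and 29.7 to 4.48, 5.26 and 5.49 CPM (log2 fold change -2.57 ± 0.08 (SE), adjusted p = 8.84e-27). *Trib3* (chr2:152337422-152344032, minus strand), a stress-induced pseudokinase, fell from 37.3, 33.5 and 32.0 to 7.01, 6.78 and 7.03 CPM (log2 fold change -2.30 ± 0.08 (SE), adjusted p = 2.24e-25). Here too the gap between the groups comes from the choice. *Bhlhe40* (chr6:108660629-108666925, plus strand), a transcriptional repressor, fell from 79.3, 76.9 and 78.0 to 21.8, 22.4 and 24.7 CPM (log2 fold change -1.76 ± 0.05 (SE), adjusted p = 1.33e-26). The others reported among the 12 largest decreases had log2 fold changes of -1.96 for the zinc-finger factor *Hivep3*, -1.89 for cystathionine gamma-lyase *Cth*, -1.79 for the natriuretic peptide clearance receptor *Npr3*, -1.63 for the proton pump subunit *Atp6v0a4*, -1.63 for *Ankrd37*, -1.62 for the carboxylesterase *Ces1g* and -1.61 for *Kctd11*. Exons of *Bhlhe40*, *Npr3*, *Ankrd37*, *Hivep3* and *Atp6v0a4* overlap another annotated gene, and *Ces1g* has close paralogs, so part of their reads may be assigned differently.

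**Figure D1:**
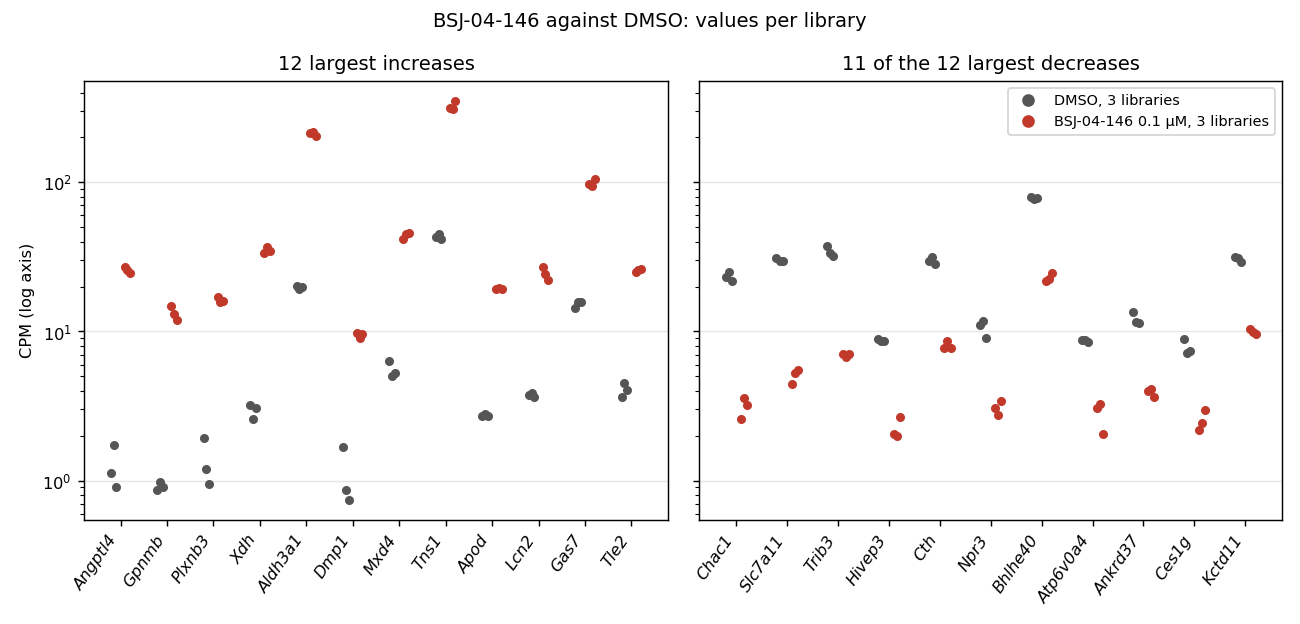
CPM (log axis) of the 12 genes with the largest increases (left) and of 11 of the 12 with the largest decreases (right), 1 point per library, grey for DMSO and red for BSJ-04-146. Only called genes with a mean of at least 5 CPM and groups that did not overlap were eligible. The gap within each gene therefore comes from the choice, and the plot shows the levels and their spread.

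The 40 gene lists used here cover 1136 tested genes, 43 of them in more than 1 list. Each is given by how many tested members were higher or lower than DMSO, to be read against 27.7% and 26.9% of all genes, and by its median log2 fold change, to be read against 0.02 for all genes. Library totals in place of TMM moved all genes upward together, and counts given with library totals are to be read against 37.4% of all genes higher and 18.5% lower and a median of 0.13. No list was tested as a set.

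Amino acid deprivation and other stresses raise translation of ATF4, a transcription factor that induces amino acid synthesis, amino acid import and tRNA charging. Of 45 tested genes of this integrated stress response, 39 were lower after BSJ-04-146, 2 were higher and 4 were not called, with a median of -0.79. Besides *Chac1*, *Slc7a11*, *Trib3* and *Cth*, the transcript of *Atf4* itself fell from 309.8, 303 and 297 to 143, 146 and 137 CPM (log2 fold change -1.09 ± 0.03 (SE), adjusted p = 8.84e-27). *Asns*, the asparagine synthetase, fell from 180.3, 184 and 175 to 79.1, 81.7 and 84.5 CPM (log2 fold change -1.14 ± 0.04 (SE), adjusted p = 4.70e-26). Both were picked after their values were seen. The 2 members that rose were *Slc6a9* (0.20), a glycine transporter whose call was lost with length and GC trends removed (0.05), and *Slc7a3* (from 0.905, 1.77 and 1.85 to 3.65, 2.60 and 3.31 CPM, 1.06), a cationic amino acid transporter. The related list of 21 amino acid transporters was mixed, with 8 higher and 9 lower (median 0.06): *Slc7a11* (-2.57), *Slc1a4* (-1.34), *Slc7a5* (-1.30) and *Slc7a1* (-1.15) fell, whereas *Slc43a2* (0.94) and the creatine carrier *Slc6a8* (0.57) rose.

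Promoters of the stress-response list were searched, as a description only, for the core letters of the ATF4 response element, TGATGNAA on either strand. This motif was added after the values were seen. In the 250 bases before the RefSeq start (GRCm38.p6), 10 of 43 promoters of the list, from 35 of its genes, held it (23.3%), beside 2.0% of 13411 promoters of tested genes. A gene with several starts has several promoters. This list and the others searched gather genes by pathway. A share above that of tested genes can come from that choice and shows nothing about the compound. The windows of *Chac1*, chr2:119350992-119351241 (plus strand), and *Asns*, chr6:7693210-7693459 (minus strand), are printed 5′ to 3′ with the match in capitals, which in *Chac1* reads on the opposite strand:
Chac1: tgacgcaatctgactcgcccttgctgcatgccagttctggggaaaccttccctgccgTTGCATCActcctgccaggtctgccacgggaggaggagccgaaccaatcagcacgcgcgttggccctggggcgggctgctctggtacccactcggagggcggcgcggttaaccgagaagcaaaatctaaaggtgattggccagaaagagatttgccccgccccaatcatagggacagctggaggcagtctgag
Asns: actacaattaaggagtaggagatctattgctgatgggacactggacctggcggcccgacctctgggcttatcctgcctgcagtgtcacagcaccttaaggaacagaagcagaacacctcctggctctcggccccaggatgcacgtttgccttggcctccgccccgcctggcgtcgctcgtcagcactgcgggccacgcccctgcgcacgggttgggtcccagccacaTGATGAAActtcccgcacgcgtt

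Hypoxia-inducible factors (HIFs) induce genes of glucose uptake, glycolysis, angiogenesis and mitophagy. Of 31 tested hypoxia-induced genes, 24 were lower, 4 were higher and 3 were not called (median -0.73), and 9 fell by more than 2-fold. *Adm*, which encodes the vasodilator peptide adrenomedullin, fell from 22.6, 23.1 and 24.1 to 8.07, 7.70 and 7.74 CPM (log2 fold change -1.57 ± 0.08 (SE), adjusted p = 7.53e-20). *Bnip3*, a mitophagy receptor, fell from 105, 100.2 and 93.9 to 36.7, 35.7 and 35.0 CPM (log2 fold change -1.48 ± 0.04 (SE), adjusted p = 6.11e-27), and *Ankrd37* from 13.6, 11.6 and 11.4 to 4.01, 4.12 and 3.66 CPM. Groups that did not overlap were a condition for naming these genes. Against this direction *Narf* (0.41) and *Pfkfb4* (0.38) rose, as did *Selenbp1* (from 0.226, 0.188 and 0.494 to 1.24, 1.90 and 1.77 CPM, 2.42) and *Anxa1* (0.14). In glucose uptake and glycolysis 21 of 24 genes were lower and 2 higher (median -0.52): hexokinase 2, *Hk2*, went from 193, 189 and 189 to 76.7, 79.2 and 85.8 CPM (-1.24 on the log2 scale) and the glucose transporter *Slc2a1* from 270.1, 267 and 264 to 118, 118 and 118 CPM (-1.18), while *Ldhb* (0.48) and *Pfkm* (0.24) rose. Among 15 HIF subunits and E3 ligase components 5 were higher and 5 lower, or 8 higher and 3 lower with library totals. The alpha subunits moved in opposite directions, *Hif1a* from 180.2, 181 and 184 to 159, 145 and 148 CPM (-0.27) and *Epas1* from 5.29, 6.09 and 5.40 to 15.3, 15.6 and 16.6 CPM (1.49).

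The core of the hypoxia response element, ACGTG on either strand, was found in 20 of 37 promoters of the hypoxia list (54.1%) and in 14 of 34 of the glycolysis list (41.2%), beside 21.3% of promoters of tested genes. It is contained in the E-box CACGTG, so matches can be either. Such a match is a string of letters and not a measured binding site. The 250 bases of *Bnip3*, chr7:138909507-138909756 (minus strand), and of *Ankrd37*, chr8:45999851-46000100 (minus strand), hold 2 matches each, overlapping in *Bnip3*, again in capitals:
Bnip3: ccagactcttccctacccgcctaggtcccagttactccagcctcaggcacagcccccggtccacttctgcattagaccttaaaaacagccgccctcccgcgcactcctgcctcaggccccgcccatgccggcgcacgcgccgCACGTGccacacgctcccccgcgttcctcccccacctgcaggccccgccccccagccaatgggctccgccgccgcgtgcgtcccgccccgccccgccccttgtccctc
Ankrd37: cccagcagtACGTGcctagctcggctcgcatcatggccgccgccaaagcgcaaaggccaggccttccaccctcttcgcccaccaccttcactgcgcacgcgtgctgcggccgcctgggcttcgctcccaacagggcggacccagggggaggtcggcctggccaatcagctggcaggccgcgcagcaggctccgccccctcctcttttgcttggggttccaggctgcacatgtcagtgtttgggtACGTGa

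Lysosomal and autophagy genes, many of them targets of the MiT/TFE transcription factors, were higher as a group. Of 49 tested, 43 rose, 0 fell and 6 were not called (median 0.65), and 9 rose by more than 2-fold. Besides *Gpnmb*, the progranulin gene *Grn* went from 157, 157 and 159 to 460.3, 474 and 459 CPM (log2 fold change 1.56 ± 0.03 (SE), adjusted p = 1.98e-31). *Hexa*, a subunit of lysosomal hexosaminidase, went from 52.2, 52.5 and 50.1 to 132, 135 and 122 CPM (1.33), and the sialidase *Neu1* from 22.2, 19.7 and 20.5 to 46.6, 48.2 and 48.2 CPM (1.20). The calcium channel *Mcoln1* (0.92) and cathepsin D, *Ctsd* (0.81), were also higher. Of the factors, *Mitf* rose from 6.60, 6.35 and 6.43 to 9.31, 7.75 and 7.86 CPM (0.36, adjusted p = 0.00269), while *Tfeb* (0.06, adjusted p = 0.684) and *Tfe3* (0.07, adjusted p = 0.233) were not called.

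The palindromic E-box CACGTG, the core bound by these factors and by MYC, was present in 10 of 48 promoters of the list (20.8%), beside 8.1% of promoters of tested genes. *Mcoln1*, chr8:3500269-3500518 (plus strand), and *Ctsd*, chr7:142387828-142388077 (minus strand), have 2 each and are shown for that reason:
Mcoln1: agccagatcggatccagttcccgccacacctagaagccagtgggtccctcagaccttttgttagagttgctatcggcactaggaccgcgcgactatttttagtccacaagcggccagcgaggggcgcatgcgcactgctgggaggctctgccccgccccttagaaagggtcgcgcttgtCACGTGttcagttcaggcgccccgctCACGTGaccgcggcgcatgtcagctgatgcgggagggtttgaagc
Ctsd: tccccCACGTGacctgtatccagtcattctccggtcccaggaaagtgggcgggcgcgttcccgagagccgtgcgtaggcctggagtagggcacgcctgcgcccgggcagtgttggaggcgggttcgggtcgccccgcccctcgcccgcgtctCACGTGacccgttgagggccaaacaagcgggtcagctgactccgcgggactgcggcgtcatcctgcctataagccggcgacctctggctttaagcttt

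SC lineage and myelin genes were mostly higher. Of 28 tested, 19 were higher, 2 lower and 7 not called (median 0.94), and 14 rose by more than 2-fold. *Sox10* (chr15:79154908-79165240, minus strand), the SC lineage factor, measured 19.7, 20.3 and 20.3 CPM with DMSO and 90.8, 96.9 and 105 CPM with BSJ-04-146 (log2 fold change 2.28 ± 0.06 (SE), adjusted p = 5.35e-28). The neuregulin receptor *Erbb3* went from 3.89, 3.50 and 3.05 to 17.9, 17.8 and 18.3 CPM (2.37), the neurotrophin receptor *Ngfr* from 9.63, 10.5 and 11.1 to 48.3, 52.4 and 51.5 CPM (2.28), and myelin basic protein, *Mbp*, from 15.9, 16.1 and 14.3 to 64.5, 65.6 and 70.5 CPM (2.12). As *Erbb3*, *Ngfr* and *Mbp* were named only among members whose groups did not overlap, their separation comes from the choice. The 2 that fell were *Nrg1* (-1.04), which encodes the ERBB3 ligand neuregulin 1, and *Drp2* (-0.45), a dystrophin-related protein of the SC surface, whose call was lost without BSJ-04-146 replicate 1 (-0.36). Repair SC genes and trophic factors were mixed, with 7 of 19 higher and 5 lower: *Ccl2*, a monocyte chemokine, rose from 27.1, 26.2 and 27.9 to 71.0, 73.0 and 65.1 CPM (1.37), *Spp1*, osteopontin, from 1030.1, 1038 and 1005 to 2492, 2435 and 2242 CPM (1.22) and the neurotrophic factor *Artn* by 0.73, while *Vegfa* went from 119, 114 and 118 to 59.6, 62.9 and 64.9 CPM (-0.90). Of 8 tested melanocyte and neural crest genes, *Sox9* (1.62) and *Mitf* rose and *Snai2* (-0.87) fell. At 1 μM, mean *Sox10* levels were 29.5 ± 2.02 CPM (SD, n = 3) with defactinib, 47.0 ± 4.22 with VS-4718, 27.7 ± 2.01 with GSK2256098, 22.6 ± 0.957 with IN10018 and 12.2 ± 0.784 with PROTAC FAK degrader 1.

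**Figure D2:**
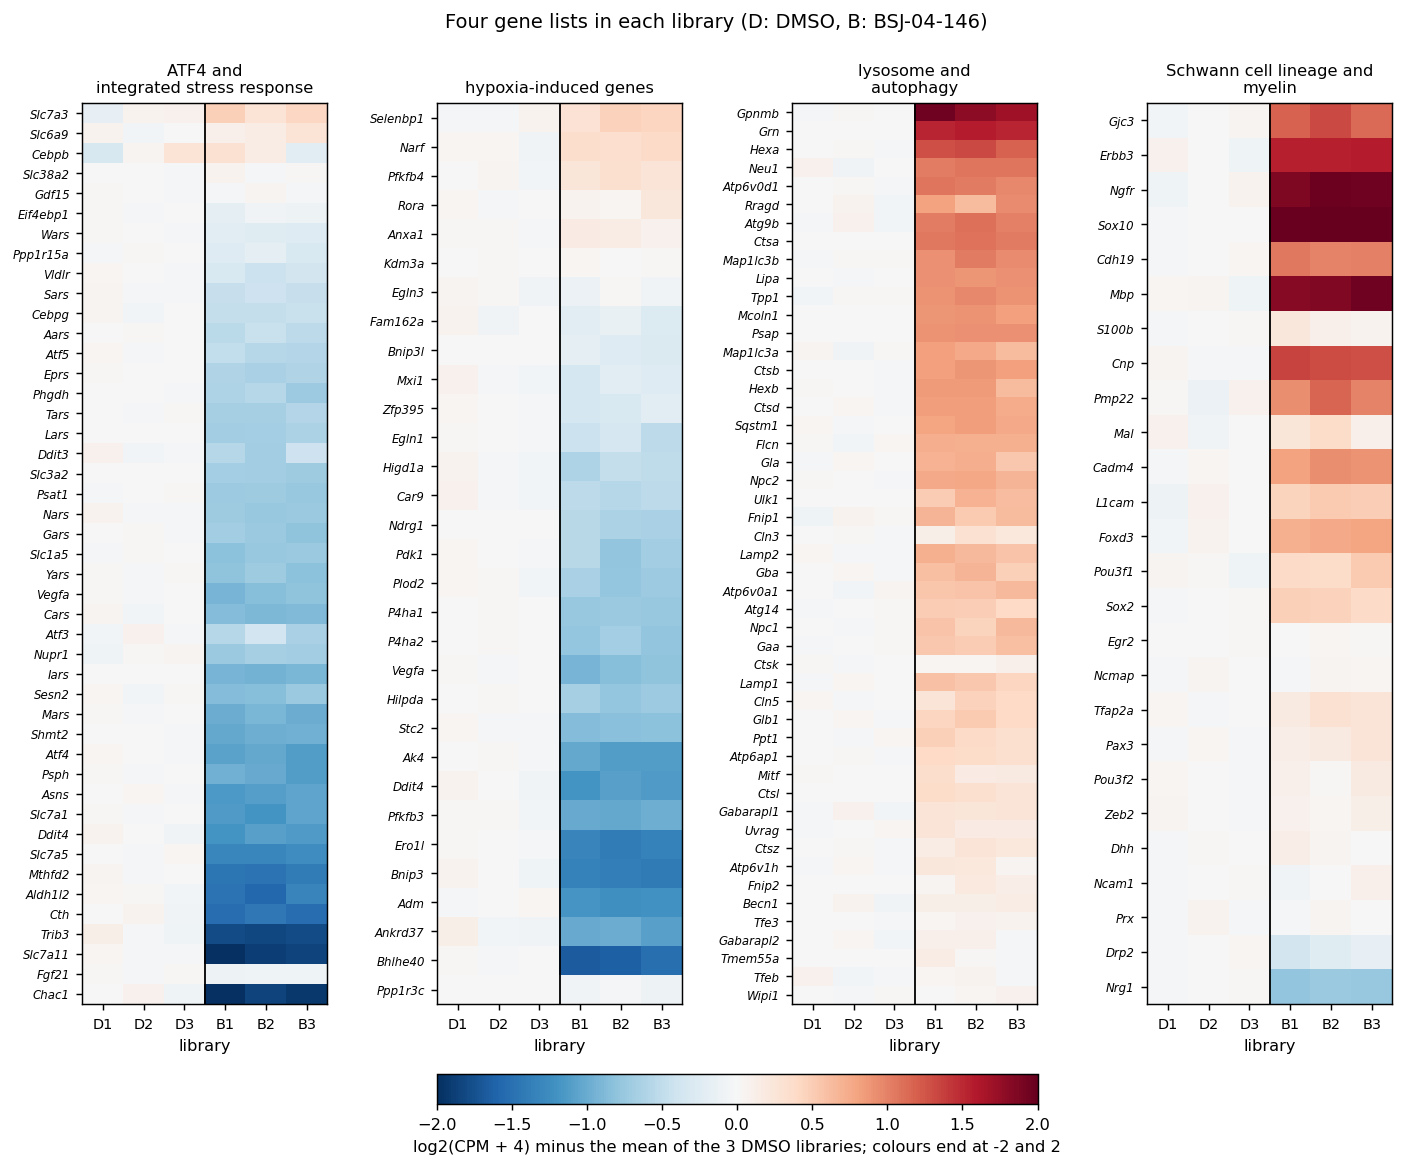
Members of 4 lists in each library, apart from a few that are not reported here, as log2(CPM + 4) minus the mean of the 3 DMSO libraries (blue lower, red higher, colours end at -2 and 2), rows ordered by log2 fold change. Columns D1 to D3 are DMSO and B1 to B3 BSJ-04-146: 39 of 45 stress-response genes and 24 of 31 hypoxia genes were lower, and 43 of 49 lysosome genes and 19 of 28 SC genes were higher.

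Growth and division genes were mostly lower, by small amounts. In the MYC network and ribosome biogenesis 41 of 47 genes were lower and 4 higher (median -0.54). Nucleolin, *Ncl*, went from 3328, 3269 and 3247 to 1786, 1771 and 1802 CPM (-0.88), spermidine synthase, *Srm*, from 273, 277 and 288 to 152, 156 and 145 CPM (-0.89) and *Myc* from 378, 371 and 381 to 237, 246 and 253 CPM (-0.62), whereas *Mxd4* rose. Of 76 cytosolic ribosomal protein genes, 61 were lower and 2 higher (median -0.23), and with library totals in place of TMM 46 were lower and 6 higher. *Rpl7a* showed the largest of these decreases, from 1433, 1413 and 1464 to 1088, 1085 and 979 CPM (-0.45), and *Rps28* (0.19) was 1 of the 2 that rose, a call lost without DMSO replicate 2 (0.15). Ribosomal protein genes have many processed pseudogenes, so their reads could be split in counting. In G1 cyclins, CDKs and their inhibitors 20 of 27 were lower and 6 higher (median -0.34). The D-type cyclins *Ccnd1* (613, 599 and 617 to 374, 379 and 359.6 CPM, -0.72) and *Ccnd2* (-0.93) fell together with the CDK inhibitor *Cdkn1a* (-1.18), while the inhibitors *Cdkn2a* (0.54) and *Cdkn2c* (0.49) rose. DNA replication (38 of 47 lower, 4 higher, median -0.25) and mitosis (42 of 53 lower, 4 higher, median -0.20) had more members lower than higher. With library totals there were 28 lower and 6 higher in replication and 25 lower and 8 higher in mitosis. *Rrm2*, a ribonucleotide reductase subunit, went from 257, 253 and 252 to 166, 165 and 162 CPM (-0.63), *Ncapg*, a condensin subunit, fell by 0.63 on the log2 scale, and no member of either list passed 2-fold. *Ccnb2* (0.31) and *Nusap1* (0.23) rose. The E2F core TTTCGCGC, on either strand, was in 6 of 47 promoters of the replication list, beside 0.5% of those of tested genes.

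Chaperones were lower in part. Of 29 ER chaperones and XBP1 targets 16 were lower and 3 higher (median -0.21), or 12 lower and 7 higher with library totals. *Herpud1* went from 38.9, 36.1 and 38.0 to 14.7, 14.6 and 14.5 CPM (-1.36) and the ER chaperone *Hspa5* from 1388, 1374 and 1333 to 892, 885 and 858 CPM (-0.64). Of 20 heat shock chaperones 11 were lower and 4 higher (median -0.32): the mitochondrial chaperonin *Hspd1* went from 1853, 1839 and 1826 to 949, 918 and 879.9 CPM (-1.01), while the inducible *Hspa1b* rose from 7.64, 7.86 and 7.66 to 17.9, 16.6 and 16.7 CPM (1.14). Respiratory chain genes did not follow the decrease. Of 48 encoded in the nucleus 21 were higher and 12 lower (median 0.06), and of 13 encoded in mitochondria 6 were higher and 0 lower (median 0.34). The largest of these changes were in *mt-Co2* (0.83) and *mt-Co3* (0.78), both under 6 CPM in every library, and above 5 CPM on average in *mt-Cytb*, from 3769, 3806 and 3784 to 6248, 5849.7 and 5177 CPM (0.60). *mt-Atp6* (0.45), also called higher, averaged 4.12 CPM with DMSO and 5.62 CPM with BSJ-04-146. The abundant *mt-Co1* (0.10), *mt-Nd2* (0.10) and *mt-Nd1* (-0.01) were not called. The BSJ-04-146 libraries spread more widely than the DMSO libraries for *mt-Cytb*, and with trends in length and GC content removed 10 of the 13 were higher.

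FOXO targets and the feedback genes of PI3K-AKT signaling were mostly higher, 22 of 35 with 9 lower (median 0.31), or 25 higher and 5 lower with library totals. The PI3K inhibitor protein gene *Pik3ip1* went from 4.43, 4.25 and 4.86 to 14.1, 14.6 and 14.4 CPM (1.67), the regulatory subunit *Pik3r3* from 7.87, 7.86 and 7.25 to 23.4, 21.8 and 20.8 CPM (1.52) and *Txnip*, an inhibitor of glucose uptake, from 25.8, 26.7 and 26.1 to 73.8, 76.9 and 74.2 CPM (1.52), whereas *Cdkn1a* and *Cited2* (-0.39) fell. p53 targets showed no common direction, with 8 of 28 higher and 11 lower, and 11 and 10 with library totals. *Trp53inp1*, an autophagy-linked factor, went from 2.49, 2.74 and 2.93 to 17.6, 15.8 and 15.7 CPM (2.58), while *Sesn2* (-0.98) and *Plk2* (-0.96) fell. In the BCL2 family 7 of 15 were higher and 4 lower, or 2 lower with library totals. The proapoptotic BH3-only gene *Bmf* went from 3.66, 4.17 and 3.87 to 22.3, 25.6 and 22.3 CPM (2.58), *Bcl2l11*, which encodes BIM, from 47.8, 48.0 and 49.5 to 61.4, 64.9 and 68.4 CPM (0.42) and *Bax* by 0.48, and *Bak1* (-0.23) and *Bcl2l13* (-0.24) were lower.

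Among 34 tested FAK and focal adhesion adaptors 17 were higher and 7 lower (median 0.09), with library totals 22 higher and 5 lower (median 0.20, beside 0.13 for all genes), and with length and GC trends removed 14 higher and 11 lower. Among those above 5 CPM, after *Tns1* came the LIM protein gene *Csrp1*, from 61.1, 58.3 and 60.0 to 99.4, 97.0 and 99.0 CPM (0.72), and *Tgfb1i1*, which encodes the paxillin relative HIC-5 (0.62). The talin *Tln2* (-0.29) and the actin regulator *Enah* (-0.37) were lower. In integrins 7 of 17 were higher and 5 lower, or 9 higher and 2 lower with library totals. The beta chain *Itgb3* went from 2.26, 2.26 and 1.85 to 8.66, 8.73 and 10.3 CPM (2.12) and the alpha chain *Itga8* from 4.39, 5.00 and 4.49 to 12.1, 10.6 and 9.39 CPM (1.20), while the laminin receptor chain *Itga7* fell from 309, 313 and 309.5 to 238, 234 and 229 CPM (-0.41). Laminins and basement membrane genes split evenly, 6 of 15 each way, with *Lama4* (0.56) and *Lamb2* (0.54) higher and *Nid1* (-0.61) lower. Collagen chains were more often higher, 14 of 24 with 6 lower (median 0.39), or 3 lower with library totals. *Col6a1* went from 12.3, 13.4 and 11.8 to 27.6, 30.0 and 31.3 CPM (1.24) and *Col18a1* from 569, 565 and 551 to 1069, 1129 and 1151 CPM (0.99), against *Col8a1* (-0.51) and *Col1a2* (-0.43). Of 29 matrix proteases and inhibitors 17 were higher and 8 lower (median 0.45): the aggrecanases *Adamts4* (38.8, 36.0 and 38.8 to 128, 132 and 136 CPM, 1.80) and *Adamts5* (1.58) rose, and the urokinase receptor *Plaur* (45.0, 43.7 and 41.4 to 23.8, 26.1 and 23.3 CPM, -0.83) fell.

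Gene lists of the transcription factors that respond to the cytoskeleton and to ERK leaned lower, by small amounts. The list of YAP and TEAD targets also holds members of the pathway itself, such as *Yap1*, *Nf2* and *Tead1*. In that list 15 of 29 were lower and 9 higher (median -0.13). In SRF and actin genes 15 of 32 were lower and 7 higher (-0.12). ERK pathway output had 12 of 23 lower and 6 higher (-0.12). With library totals these became 7 lower and 12 higher, 11 lower and 10 higher, and 8 lower and 10 higher. The list medians then were -0.02, -0.01 and -0.01, below the 0.13 of all genes as they were below 0.02 with TMM. *Ankrd1*, a YAP target, went from 182, 174 and 179 to 78.6, 76.5 and 79.4 CPM (-1.19), *Cyr61*, a matricellular protein gene, from 337, 338 and 325 to 157, 169.7 and 162 CPM (-1.03), and the Hippo pathway gene *Wwc1* fell by 0.79 on the log2 scale. *Ctgf*, another YAP target, was not called (0.11). Filamin C, *Flnc*, fell from 347, 348 and 351 to 152, 154 and 164 CPM (-1.16) and *Tagln2* by 0.72, whereas tropomyosin *Tpm2* rose from 15.2, 17.1 and 17.6 to 45.3, 44.6 and 45.1 CPM (1.43). The ERK phosphatase *Dusp5* (-1.11), *Ier3* (-0.99) and the ephrin receptor *Epha2* (-0.62) were lower, and *Etv1* (0.43) and *Dusp1* (0.40) higher. In AP-1 and immediate-early genes 10 of 22 were lower and 7 higher (9 and 8 with library totals), with *Maff* (-1.14) and *Atf3* (-0.92) lower and *Klf4* (0.62) higher.

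Of 23 tested receptor tyrosine kinases 11 were higher and 8 lower, or 13 higher and 4 lower with library totals. Besides *Erbb3* and *Met*, *Fgfr1* went from 33.2, 34.1 and 33.8 to 85.5, 86.4 and 84.4 CPM (1.34), *Pdgfra* from 12.0, 13.4 and 11.7 to 25.8, 24.6 and 27.8 CPM (1.07) and the collagen receptor *Ddr2* from 416, 419.7 and 406 to 251, 248 and 262 CPM (-0.71). Among semaphorins, plexins and neuropilins, guidance cues and their receptors, 15 of 29 were higher and 6 lower (median 0.29). The receptors *Plxnb3* (1.94, 1.20 and 0.948 to 17.1, 15.8 and 16.0 CPM), *Plxnb1* (1.06), *Plxna2* (0.94) and *Plxnd1* (0.73) rose, while *Plxnb2* (-0.20) and *Plxna1* (-0.18) fell, the latter not called with library totals. The ligands *Sema3c* (-0.62) and *Sema3e* (-0.55) fell, and the ligands *Sema3b* (0.61) and *Sema4b* (0.55) rose. TGF-β and BMP signaling genes were higher in 19 of 37 and lower in 10 (median 0.17). *Tgfb1* itself went from 6.60, 7.41 and 6.43 to 14.9, 16.2 and 13.6 CPM (1.13) and its target *Pmepa1* from 9.45, 12.0 and 12.6 to 29.9, 32.5 and 32.0 CPM (1.46), while *Smad7* (-0.70) and *Tgfb2* (-0.58) fell.

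Interferon genes were higher, in libraries where *Ptprc*, *Adgre1*, *Tyrobp* and *C1qa* were at 0 counts and *Cd68*, *Csf1r* and *Fcer1g* were higher. In the interferon response 27 of 33 genes rose and 0 fell (median 0.61). Their levels were low: *Stat2* went from 11.0, 10.3 and 10.6 to 16.4, 18.5 and 17.7 CPM (0.73), the RNA sensor *Ddx58* from 16.1, 19.0 and 17.1 to 30.4, 27.7 and 25.9 CPM (0.68), *Parp14* from 3.84, 5.11 and 5.97 to 9.25, 10.7 and 10.5 CPM (1.02) and *Samd9l* by 0.69. In MHC class I presentation 12 of 20 were higher and 2 lower (median 0.24), led among genes above 5 CPM by *Cd1d1* (1.75) and the peptide-loading gene *Tapbp* (114, 115 and 118 to 194, 197 and 195 CPM, 0.76), while *H2-K1* (-0.17) and *Pdia3* (-0.09) were lower. With library totals 14 were higher and 0 lower, *H2-K1* was not called (-0.06) and *Pdia3* was at 0.023, also not called. H2 genes share reads with near-identical copies. Of 32 NF-κB subunits and targets 17 were higher and 9 lower (median 0.22). *Lcn2* (3.75, 3.87 and 3.63 to 27.2, 24.4 and 22.0 CPM), *Tnfaip2* (1.52) and *Ccl2* rose, and *Ptgs2*, which encodes inducible cyclooxygenase, fell from 15.8, 16.0 and 14.6 to 6.25, 5.96 and 5.38 CPM (-1.40). *Il6* was too low to test, with at most 3 counts in any library.

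Metabolic lists outside glycolysis were divided. In fatty acid synthesis and lipid storage 15 of 30 genes were lower and 8 higher (median -0.15): the desaturase *Scd2* fell from 1481, 1472 and 1485 to 618, 591 and 621 CPM (-1.28), while *Angptl4*, the carnitine palmitoyltransferase *Cpt1a* (72.5, 73.1 and 70.2 to 206, 199.9 and 200.2 CPM, 1.49) and the lipase *Lipe* (0.97) rose. Cholesterol genes were 7 of 26 higher and 9 lower (with library totals 12 and 7), with lanosterol synthase *Lss* going from 72.3, 75.6 and 73.2 to 50.2, 52.0 and 51.3 CPM (-0.53), against increases of the sterol reductase *Tm7sf2* (1.60) and the ubiquitin ligase *Mylip* (1.38). NRF2 antioxidant genes were 14 of 32 higher and 6 lower (median 0.09), with library totals 20 higher and 3 lower and with length and GC trends removed 13 higher and 10 lower. Of these genes *Aldh3a1*, *Nqo1* (1.75) and *Gsta4* (1.31) were higher and *Slc7a11* was lower. In iron handling 8 of 19 rose and 8 fell, or 9 and 7 with library totals. Ferritin heavy chain, *Fth1*, went from 772, 779 and 768 to 1438, 1442 and 1316 CPM (0.86), ceruloplasmin, *Cp*, from 63.7, 62.4 and 65.7 to 229, 219 and 221 CPM (1.80), and the transferrin receptor *Tfrc* from 766, 767 and 763 to 457, 426 and 408 CPM (-0.83).

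**Figure D3:**
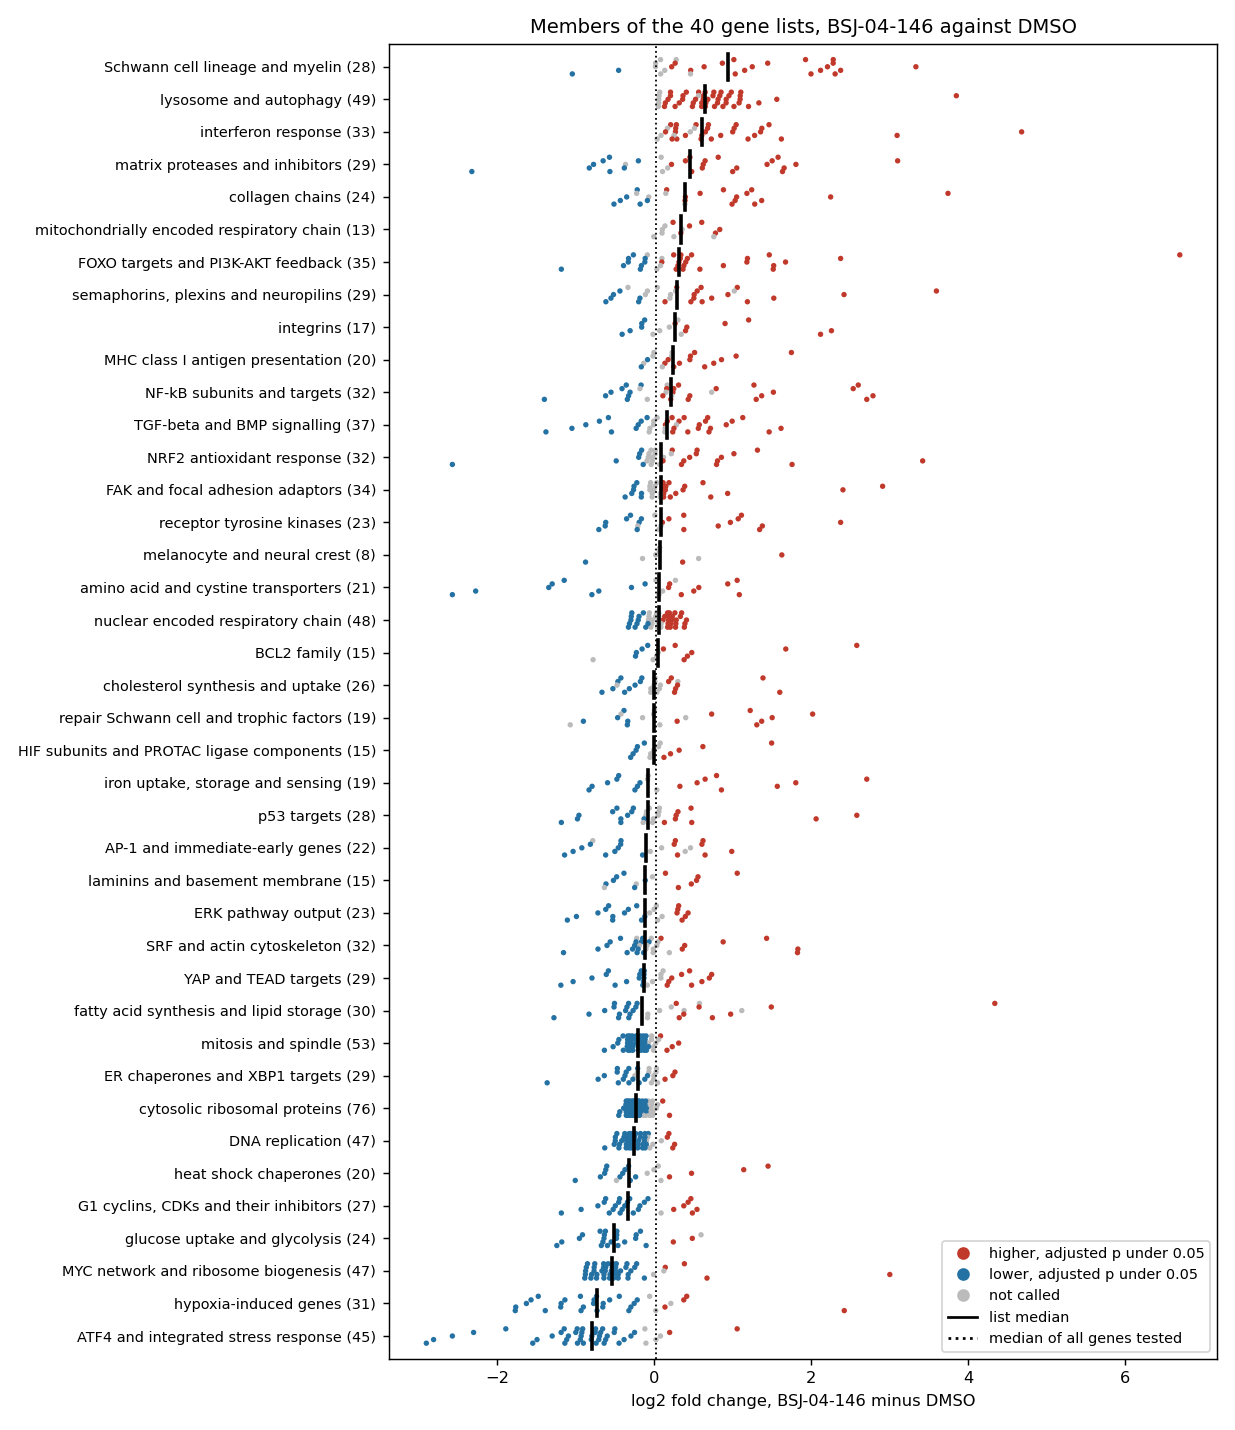
Log2 fold change of BSJ-04-146 minus DMSO for every tested member of the 40 lists (number tested in brackets), red or blue where the adjusted p was under 0.05, with the list median as a black bar and the median of all genes as a dotted line. Lists are ordered by median, from -0.79 for the ATF4 list to 0.94 for the SC list.

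GSK215 was the only compound given at the same dose and time, and it was compared with BSJ-04-146 in 1 pairwise test per gene. Of 16070 genes, 3615 differed (22.5%), 2027 higher with BSJ-04-146 (12.6%) and 1588 lower (9.88%), and by more than 2-fold 36 were higher (0.224%) and 40 lower (0.249%). The median absolute difference was 0.14 on the log2 scale. Several genes that changed against DMSO did not pass the test between the 2 compounds, which does not show that they act alike. *Sox10* measured 91.7, 98.5 and 103 CPM with GSK215, and the log2 difference was 0.00 with a 95% confidence interval of -0.11 to 0.10. For *Chac1*, at 2.30, 2.99 and 2.96 CPM with GSK215, the difference was 0.17 with an interval of -0.17 to 0.51, for *Bnip3* -0.13 with an interval of -0.24 to -0.03, and for *Ptk2* 0.03 with an interval of -0.04 to 0.11. These intervals are not adjusted for the number of genes, and the one for *Bnip3* leaves out 0 although its adjusted p was 0.0592. *Met* was lower with BSJ-04-146 than with GSK215 (198, 182 and 182 CPM), a log2 difference of -0.28 ± 0.03 (SE), adjusted p = 6.91e-08, and the 2 groups did not overlap.

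Sterol genes set the compounds apart. Of 26 cholesterol genes 20 were higher with BSJ-04-146 than with GSK215 and 1 was lower (median 0.52, beside 0.01 for all genes). Against the shared DMSO libraries, 19 of these 20 were lower with GSK215 and 1 higher, whereas with BSJ-04-146 5 were higher, 7 lower and 8 not called. The 20 were picked for lying above GSK215, which favors low GSK215 values. The shares of all genes (54.7% called between GSK215 and DMSO, 27.2% lower and 27.4% higher) are therefore no matched reference. Of all 2027 genes higher with BSJ-04-146 than with GSK215, BSJ-04-146 had 1034 higher than DMSO, 505 lower and 488 not called. *Insig1* (chr5:28071363-28078662, plus strand), which encodes a sterol sensor of the ER, measured 143, 144 and 142 CPM with BSJ-04-146 and 69.6, 69.7 and 68.4 CPM with GSK215 (log2 difference 1.04 ± 0.04 (SE), adjusted p = 5.21e-23), with 126, 125 and 126 CPM in DMSO lying between. *Fdps* (chr3:89093588-89101959, minus strand), farnesyl diphosphate synthase, measured 107, 102 and 83.5 and 47.8, 47.6 and 46.2 CPM (log2 difference 1.05 ± 0.06 (SE), adjusted p = 1.38e-16), with 94.4, 90.4 and 92.7 CPM in DMSO, from which BSJ-04-146 was not called different (0.08, adjusted p = 0.218). Without BSJ-04-146 replicate 3 it was called higher than DMSO (0.17, adjusted p = 0.00157), as with library totals (0.19). *Tm7sf2* (chr19:6062821-6068373, minus strand) measured 28.6, 25.9 and 24.1 and 9.65, 11.8 and 11.9 CPM (log2 difference 1.22 ± 0.08 (SE), adjusted p = 3.83e-14), with 8.50, 8.50 and 8.94 CPM in DMSO. Its exons overlap *Vps51* on the same strand and those of *Fdps* overlap a predicted gene. *Abca1* (chr4:53030787-53159895, minus strand), the cholesterol exporter, went the other way, at 3.65, 2.76 and 2.60 CPM with BSJ-04-146, 7.68, 6.57 and 7.01 with GSK215 and 2.26, 2.74 and 2.27 with DMSO (log2 difference -1.23 ± 0.17 (SE), adjusted p = 7.48e-07). It was the 1 list member that was lower. The sterol response element letters TCACNCCAC, also added after the values were seen, were in 1 of 22 promoters of the list and in 1.0% of those of tested genes.

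The other genes named by the largest differences from GSK215 were *Gpnmb* (6.57, 6.46 and 5.97 CPM with GSK215, log2 difference 1.07 ± 0.13 (SE), adjusted p = 2.43e-08), the stem cell receptor *Lgr6* (56.0, 52.5 and 51.6 against 25.9, 24.7 and 25.8 CPM, 1.07) and the quinone reductase *Nqo1* (1.07) on the higher side. On the lower side were the secreted protease *Adamts8* (-1.02), the collagen *Col12a1* (20.0, 16.2 and 17.1 against 35.5, 37.9 and 34.6 CPM, -1.02), the matrix proteoglycan *Prelp* (17.0, 17.1 and 20.9 against 37.0, 35.6 and 34.8 CPM, -0.97), the ion exchanger *Slc24a3* (-0.92) and the immediate-early factor *Egr1* (11.1, 11.8 and 12.1 against 21.9, 20.7 and 21.3 CPM, -0.87). Of the 40 lists, 21 had more members higher with BSJ-04-146 than lower, 17 more lower and 2 as many each way. More than 3 in 10 members were higher in 11 lists. These were the cholesterol list, lysosomal genes (22 of 49, 1 lower, median 0.11), NRF2 genes (22 of 32, 1 lower, 0.25), fatty acid synthesis (17 of 30, 3 lower, 0.17), glycolysis (13 of 24, 3 lower, 0.15), ERK output (11 of 23, 5 lower, 0.12), the BCL2 family (7 of 15, 1 lower, 0.15), mitosis (18 of 53, 5 lower, 0.04), HIF subunits and E3 ligase components (5 of 15, 0 lower, 0.09) and the 2 lists of short transcripts that follow. More than 3 in 10 were lower in another 9. Laminins had 10 of 15 lower and 0 higher (median -0.22), amino acid transporters 12 of 21 and 1 (-0.17), ER chaperones 15 of 29 and 1 (-0.17), matrix proteases 14 of 29 and 0 (-0.16) and receptor tyrosine kinases 11 of 23 and 0 (-0.18). Integrins had 7 of 17 lower and 2 higher (-0.13), MHC class I genes 8 of 20 and 0 (-0.11), semaphorins and plexins 11 of 29 and 1 (-0.14) and collagens 9 of 24 and 2 (-0.14). Heat shock chaperones were higher in 5 of 20 and lower in 1 (0.07). Cytosolic ribosomal protein genes were higher in 72 of 76 with 0 lower (0.22) and nuclear encoded respiratory chain genes in 32 of 48 with 0 lower (0.16). These last 2 lists hold short transcripts, with median lengths of 1100 and 1297.5 bases beside 2964 for all genes, and the median difference of all genes was 0.04 in the bin of shortest transcripts and -0.05 in that of the longest, of 5 bins. With each library's trends in length and GC content removed, 69 of 76 and 30 of 48 were higher. In the ATF4 list 12 of 45 were higher and 6 lower (median 0.07), in the hypoxia list 9 of 31 higher and 2 lower (0.03) and in the SC list 2 of 28 higher and 3 lower (-0.06), beside 12.6% higher and 9.88% lower of all genes.

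**Figure D4:**
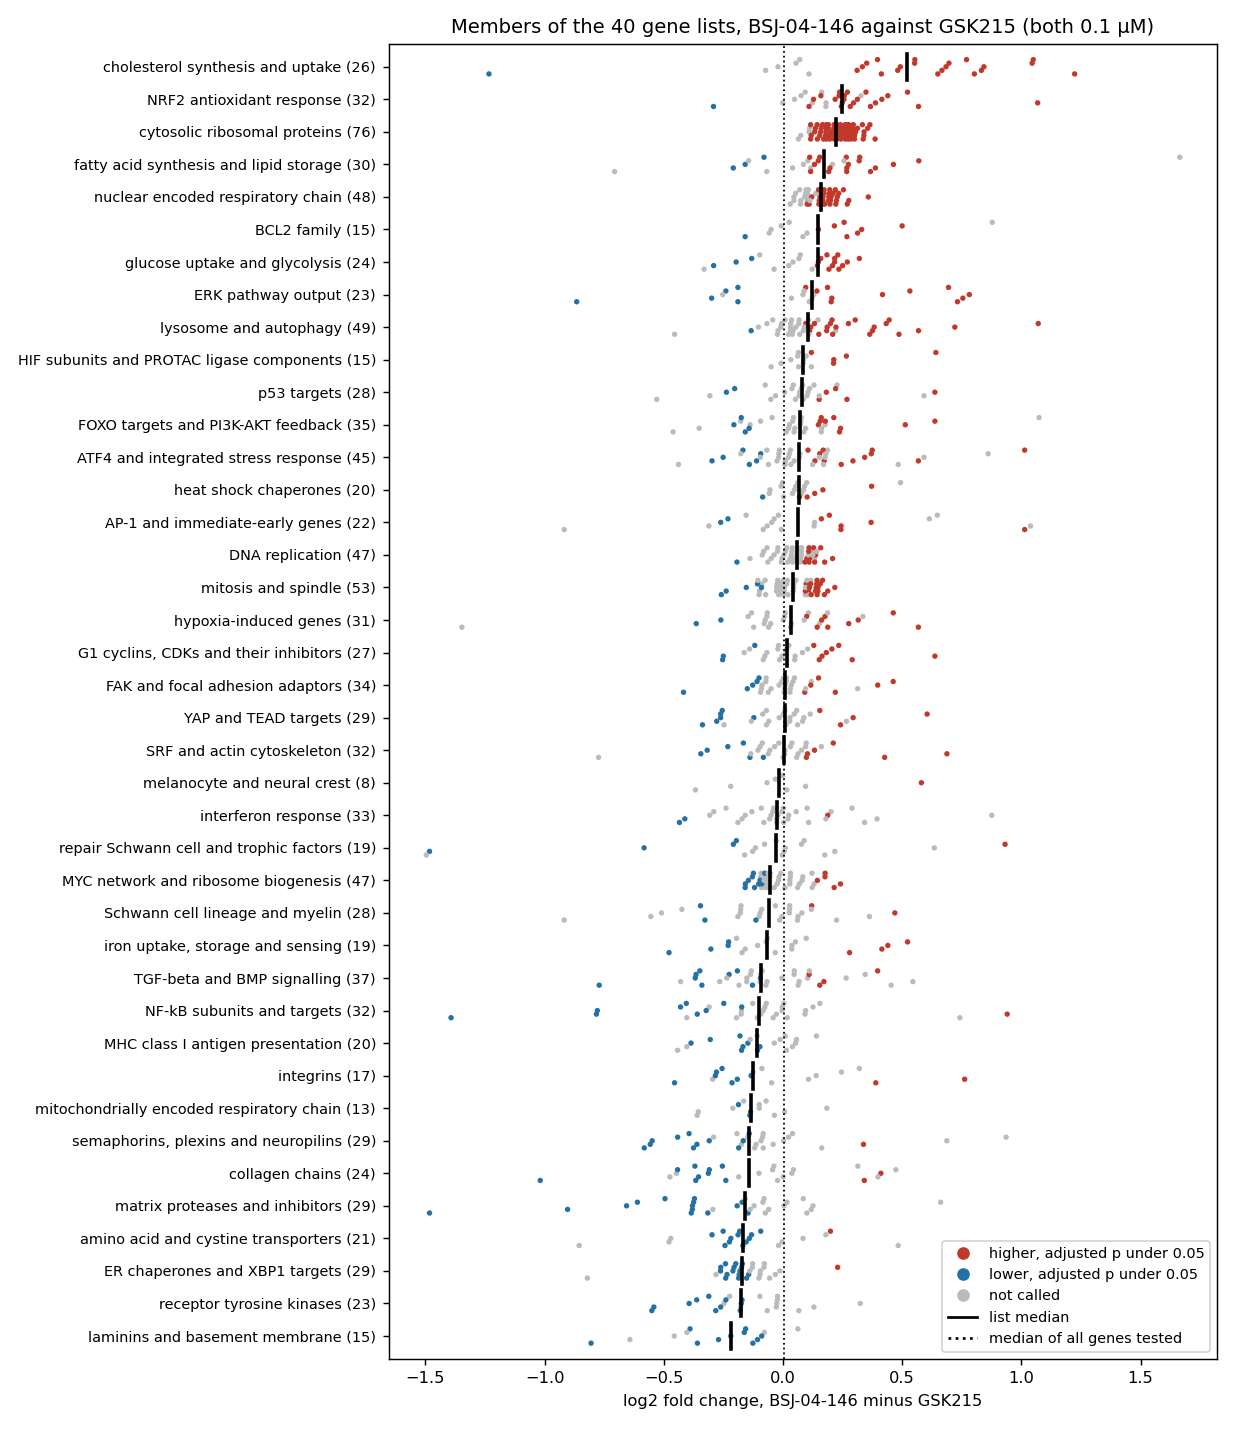
Log2 difference of BSJ-04-146 minus GSK215, both at 0.1 μM for 24 hours, for every tested member of the 40 lists, drawn as in the plot against DMSO. The cholesterol list has the highest median (0.52) and the laminin list the lowest (-0.22).

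For the genes drawn across all 8 groups, *Gpnmb* was 13.3 ± 1.53 CPM (SD, n = 3) with BSJ-04-146, 6.33 ± 0.317 with GSK215 and between 0.914 and 1.76 in the group means of DMSO and of the 5 compounds at 1 μM. *Chac1* was 3.12 ± 0.496 CPM with BSJ-04-146, 2.75 ± 0.392 with GSK215, 3.30 ± 0.447 with VS-4718, 11.6 ± 0.237 with GSK2256098, 18.1 ± 1.87 with defactinib, 23.4 ± 1.58 with DMSO, 37.1 ± 1.43 with IN10018 and 75.2 ± 2.41 with PROTAC FAK degrader 1. The doses differ between these groups, and no test was made across them.

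**Figure D5:**
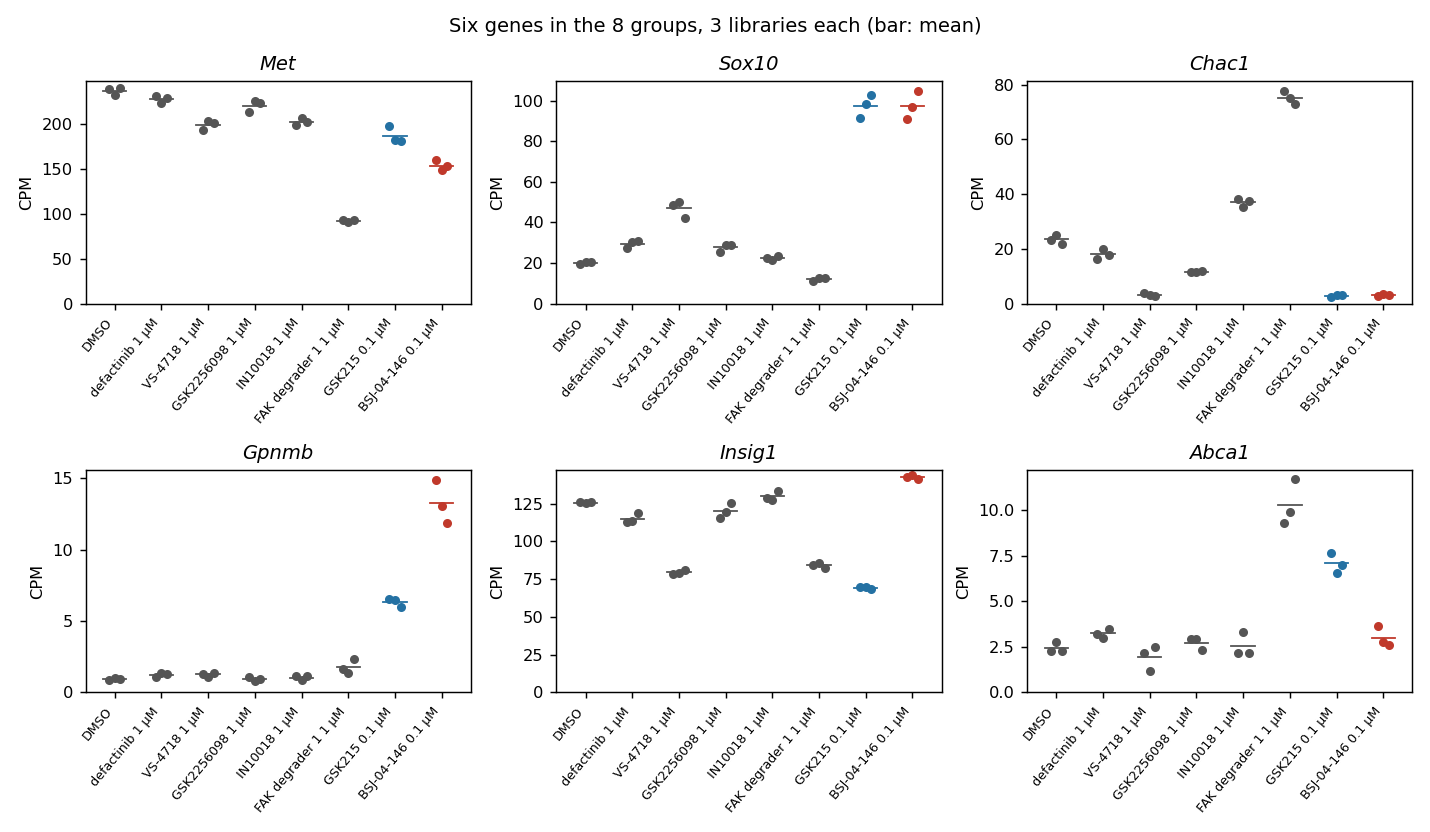
CPM (linear axes from 0) of 6 genes in the 24 libraries, 3 points and a bar at the mean for each group, red for BSJ-04-146, blue for GSK215 and grey for DMSO and the compounds given at 1 μM. *Sox10* lies at 97.5 and 97.6 CPM on average with BSJ-04-146 and GSK215, and *Insig1* at 143 and 69.2.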

How the data were processed

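The 24 libraries were made with poly(A) selection and sequenced by a commercial service. The authors deposited raw counts, whole reads for each Ensembl gene, in 49315 rows without normalization; 174 rows had no symbol and were kept under their identifier, and 0 columns were left unused. The submitters' processing notes name Trimmomatic 0.36, STAR 2.5.2b, featureCounts of Subread 1.5.2 and GRCm38. Gene positions, transcript length and GC content came from GENCODE M21 (GRCm38), which held 48970 of the identifiers.

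Counts of all 24 libraries were fitted in R 4.3.3 with edgeR 4.0.16 (filterByExpr, TMM factors, 1 mean per group, quasi-likelihood F test, 16 residual degrees of freedom), P values were adjusted by Benjamini-Hochberg over 16070 genes, and 0.05 was the threshold. CPM were TMM-scaled. Standard errors are the log2 fold change over the square root of F. Named genes were *Met*, *Ptk2*, *Ptk2b*, *Nf2* and *Sox10*, the 12 largest called changes each way against DMSO and the 6 each way against GSK215 with a mean of at least 5 CPM and groups that did not overlap, leaving out identifiers, histones and small RNAs, and in each list up to 4 members with up to 2 the other way. Further members were named, after their values were seen, where a count or role called for them, some of them under 5 CPM. The members and lists were chosen with earlier results of these data known. The lists name 1262 genes, of which 126 were not tested. Alternatives were DESeq2 1.42.0, limma 3.58.1 on log2(CPM + 4), library totals, no filter, only the 6 libraries, a replicate block, a 2-fold minimum, thinning to 14472462 counts, leaving out each library and, added after seeing the data, removal of length and GC trends. The fit was tested on simulated data. Counts and medians of lists cover all tested members, but some single genes are not reported here. Pairs of replicates differed by 1.73 to 4.43 times the sampling variance, so no pair differed by sampling alone. This ratio cannot tell separate cultures from separate preparations of the same RNA. Same-numbered BSJ-04-146 and DMSO libraries did not deviate together (r = -0.0298, -0.0325 and -0.0121 across genes, genes not being independent), nor with GSK215 (0.0461, -0.0134 and -0.0427), and the numbers were not taken to pair them.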

Additional observations from a re-analysis of the deposited data

Results flagged for a closer look

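In 22 reported genes of the lists the compounds given at 0.1 μM for 24 hours had effects of opposite sign, both past the threshold against DMSO, and the difference between the compounds, tested directly with edgeR, had an adjusted p of at most 4.89e-05. All 22 had at least 5 CPM on average and BSJ-04-146 libraries that overlapped neither other group. Over all genes, with neither of these minimums, 92 showed this, 45 with BSJ-04-146 above DMSO and 47 below it. Both effects are measured against the same DMSO libraries. The values are log2 differences of BSJ-04-146 minus GSK215. With BSJ-04-146 above DMSO and GSK215 below it were 9 genes. The sterol genes among them were *Insig1* (1.04), squalene synthase *Fdft1* (0.77; mean 59.1 CPM with BSJ-04-146, 34.6 with GSK215 and 48.2 with DMSO) and *Mvd* (0.68). The others were the ERK phosphatase *Dusp4* (0.69), the adhesion adaptor *Parvb* (0.40), *Srxn1* (0.39), *Uvrag* (0.36), *Taldo1* (0.24) and *Max* (0.24).

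With BSJ-04-146 below DMSO and GSK215 above it were 13 genes. Matrix and adhesion genes among them were tenascin C, *Tnc* (-0.58; mean 70.9 CPM with BSJ-04-146, 106 with GSK215 and 92.6 with DMSO), urokinase *Plau* (-0.61), vinculin *Vcl* (-0.42; mean 146 CPM with BSJ-04-146, 195 with GSK215 and 163 with DMSO), the collagens *Col1a1* (-0.37) and *Col5a2* (-0.31) and the integrin chains *Itgav* (-0.28) and *Itgb1* (-0.26). The others were *Epha7* (-0.54), *Crim1* (-0.34), *Amotl2* (-0.28), *Slc6a6* (-0.22), *Sel1l* (-0.21) and *Pdia3* (-0.17). Several effects against DMSO were small, down to -0.09 for *Pdia3*, less than the shift of the median of all genes between scalings, so their sign against DMSO rests on TMM.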

How the results depend on the processing

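For the lead genes and largest changes (44 results), 615 values under the alternatives kept their direction and their side of the threshold, and 1 did not, *Nf2* with library totals. Of 150 list members given against DMSO, 139 kept both throughout. Most of these genes were chosen for large called changes in these same libraries, which favors keeping the call. Of all 8771 calls against DMSO, library totals lost 1354. Of all 3615 calls against GSK215, 1137 were lost without BSJ-04-146 replicate 2. Library totals put *Pdia3* at 0.023 and lost the calls of *H2-K1*, *Col1a1* and *Plxna1*, and *Fdps* and *Tfe3* were then called. DESeq2 lost *Rps28* and the removal of length and GC trends *Slc6a9*. Calls were also lost without DMSO replicate 2 (*Csf1r*, *Pdia3*, *Rps28*), BSJ-04-146 replicate 3 (*Csf1r*, *Pdia3*, and *Fdps* gained) and BSJ-04-146 replicate 1 (*Drp2*, *S100b*). A minimum of 2-fold left 926 genes higher and 252 lower against DMSO and 36 higher and 40 lower against GSK215. Leaving out each library in turn gave 4060.0 to 4218 genes higher and 4094 to 4166 lower against DMSO, and 1421 to 1852 higher and 1153 to 1537 lower against GSK215, the lowest counts against GSK215 without BSJ-04-146 replicate 2. With a replicate block the counts were 4419 and 4301 against DMSO and 1998 and 1554 against GSK215, and none of these genes changed its call under it. DESeq2 gave 4086 and 4228 against DMSO, limma 4498 and 4340.0. Library totals made 67% of the calls against DMSO higher, beside 50.7% with TMM. With trends in length and GC content removed, an alternative chosen after seeing the data, 4241 were higher and 4563 lower, 6 calls turned their direction and 964 were lost, the medians of the receptor tyrosine kinase, BCL2 and cholesterol lists against DMSO went below 0, and those of the iron handling and HIF subunit lists went above 0. Genes of few counts, such as *Chac1* and *Gpnmb*, have wider intervals, and the BSJ-04-146 libraries are shallower than those of DMSO.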
